A study of Mus musculus with 4 samples.

Results

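The genes described here are the vascular endothelial growth factor (VEGF) ligands Vegfa, Vegfb, Vegfc and Pgf, the receptor tyrosine kinases Kdr, Flt1 and Flt4, and the neuropilin co-receptors Nrp1 and Nrp2, as transcribed in mouse cardiac endothelial cells. They were taken by gene symbol and make up 9 of the 45882 gene IDs in the table. All 9 passed the filter on low values, a mean over the 4 libraries of 1 FPKM or more, as did 12325 genes in all. FPKM are fragments sequenced from a gene, divided by transcript length in kilobases and by library size. Cells had been selected with CD31 beads, in repeated column passes, from hearts of male mice that were either global Smad3 knockouts (129-Smad3tm1Par/J, Smad3 KO) or wild type (WT). Smad3 is a DNA-binding factor through which, beside Smad2, TGF-β receptors act on transcription. From 7 wk of age the mice received 4 weekly tail vein injections of doxorubicin (Dox) at 5 mg/kg or of saline, and cells were collected 9 wk after the last one, with an age of 20 wk given in the labels. Doxorubicin is an anthracycline used against cancer that damages the heart late after treatment. The groups were Smad3 KO Dox, Smad3 KO saline, WT Dox and WT saline, with 1 library each, and the number of hearts behind a library is not given in the sources used here.

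With 1 library per group there was no replicate spread to test against, so every difference below is between single libraries and has no error. The words rose and fell are kept for a change in log2(FPKM + 0.5) of 1 or more, called the size rule. Each library enters 2 of the 4 comparisons, which are therefore not independent of one another. Group names were read from the titles of the samples. A genotype tag given with the samples names WT for the library titled Smad3 KO saline and Smad3 KO for that titled WT Dox, and a treatment field named doxorubicin for all 4 samples. Smad3 itself was at 0.848 FPKM in Smad3 KO Dox, 1.02 in Smad3 KO saline, 2.09 in WT Dox and 2.95 in WT saline, so both libraries titled Smad3 KO were below both titled WT. The mean log2 level of Smad3 in the libraries titled Smad3 KO minus that in the libraries titled WT was -1.06, and -0.29 with the genotype taken from the tag. By the tag, both libraries titled Dox are Smad3 KO and both titled saline are WT. A genotype difference by the tag is therefore also the mean difference of Dox from saline by title, and the 2 cannot be told apart.

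VEGF ligands are secreted dimers. VEGF-A binds the receptors encoded by Kdr (VEGFR2) and Flt1 (VEGFR1), placental growth factor (Pgf) and VEGF-B bind Flt1, and VEGF-C binds Flt4 (VEGFR3) and, after proteolysis, Kdr. Kdr carries most of the growth, survival and permeability signal in blood vessel endothelium, Flt1 binds VEGF-A tightly with a weak kinase and limits it, and Flt4 is best known in lymphatic endothelium. Neuropilins have short cytoplasmic tails and bind both VEGFs and class 3 semaphorins. Nrp1 is characteristic of arterial endothelium and Nrp2 of venous and lymphatic endothelium during vessel development.

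Pan-endothelial markers were expressed in all 4 libraries, and markers of other cells were present too, at unequal levels. Sums over lists of different genes do not give the share of each cell type. All 12 pan-endothelial markers were measured, and their summed level was 2555 FPKM in Smad3 KO Dox, 3066 in Smad3 KO saline, 2985 in WT Dox and 3023 in WT saline. The sum of 10 cardiomyocyte markers was 2050, 1500, 1187 and 891 FPKM in that order, and that of 7 red cell markers was 28549, 10289, 4384 and 4423 FPKM. The sum of 13 macrophage and leukocyte markers was 190, 315, 542 and 532 FPKM. Depth estimated from the spacing of low values was 0.752, 0.914, 0.924 and 1 relative to WT saline, so the Smad3 KO Dox library, which stands at an end of all these ranges, was also the shallowest. In such bulk preparations fewer cells of a type and less RNA per cell cannot be told apart.

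Per transcript length, the levels of Nrp1, Flt1 and Kdr were the highest of the 9. They stood between 222 and 649 FPKM, above the 97th percentile of the genes tested in every library. Nrp2 and Flt4 stood between 29.4 and 112 FPKM, and the 4 ligands between 9.96 and 27.0 FPKM, as the plot of levels by library shows. In both Smad3 KO libraries Nrp1 had the highest level of the 9, whereas Flt1 had the highest in WT Dox and in WT saline. The receptors summed to 485 FPKM in Smad3 KO Dox, 655 in Smad3 KO saline, 642 in WT Dox and 591 in WT saline. The neuropilins summed to 705, 493, 365 and 350 FPKM in the same order, with both Smad3 KO libraries above both WT libraries. The ligands summed to 74.8, 72.2, 60.9 and 71.7 FPKM, a spread of 1.23-fold.

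**Figure D1:**
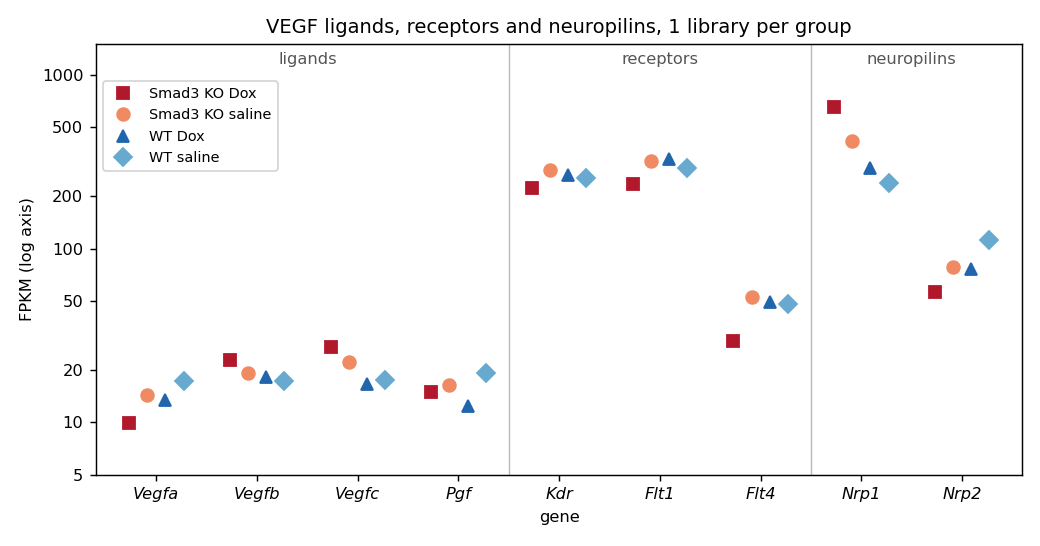
FPKM (log axis) of the 9 genes in the 4 libraries, each point 1 library: squares Smad3 KO Dox, circles Smad3 KO saline, triangles WT Dox, diamonds WT saline. Nrp1 is at 649, 414, 289 and 238 FPKM in that order, while Nrp2 is lowest in Smad3 KO Dox (55.9) and highest in WT saline (112).

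One of the 9 genes passed the size rule, in 1 of the 4 comparisons: Nrp1 rose in Smad3 KO Dox against WT Dox. In that comparison 6.17% of the 12325 genes rose and 3.75% fell. No VEGF gene passed the rule in WT Dox against WT saline, where 1.03% of all genes rose and 2.69% fell. None passed in Smad3 KO Dox against Smad3 KO saline, where 4.02% of all genes rose and 2.84% fell. None passed in Smad3 KO saline against WT saline, where 1.70% rose and 3.03% fell.

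A lower size rule of 1.5-fold brought in Pgf, Flt4 and Vegfc. In WT Dox against WT saline 1 gene, Pgf, was then lower (9.96% of all genes) and 0 were higher (3.53%). Smad3 KO Dox had higher Nrp1 than Smad3 KO saline (13.5% of all genes) and lower Flt4 (10.3%). Nrp1 was also higher in Smad3 KO saline than in WT saline (6.87% of all genes), with 0 lower (11.3%). Against WT Dox, Smad3 KO Dox had 2 genes higher, Vegfc and Nrp1 (19.6%), and 1 lower, Flt4 (12.1%).

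The median difference of the 9 genes was 0.04 in WT Dox against WT saline, beside -0.06 over all genes tested. It was -0.35 in Smad3 KO Dox against Smad3 KO saline, beside 0.05. For Smad3 KO saline against WT saline it was 0.14, beside -0.01. In Smad3 KO Dox against WT Dox it was -0.25, beside 0.12. With each library scaled to a common FPKM total (TPM) the median of the 9 genes was -0.14 in WT Dox against WT saline and -0.25 for Smad3 KO saline over WT saline, so its sign in these comparisons depended on the scaling. Unscaled FPKM sums were 563197 in Smad3 KO Dox, 666863 in Smad3 KO saline, 579708 in WT Dox and 509818 in WT saline. Mitochondrially encoded genes made up 8.95%, 20.1%, 16.8% and 10.5% of these sums. Their part in the differences was not tested.

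**Figure D2:**
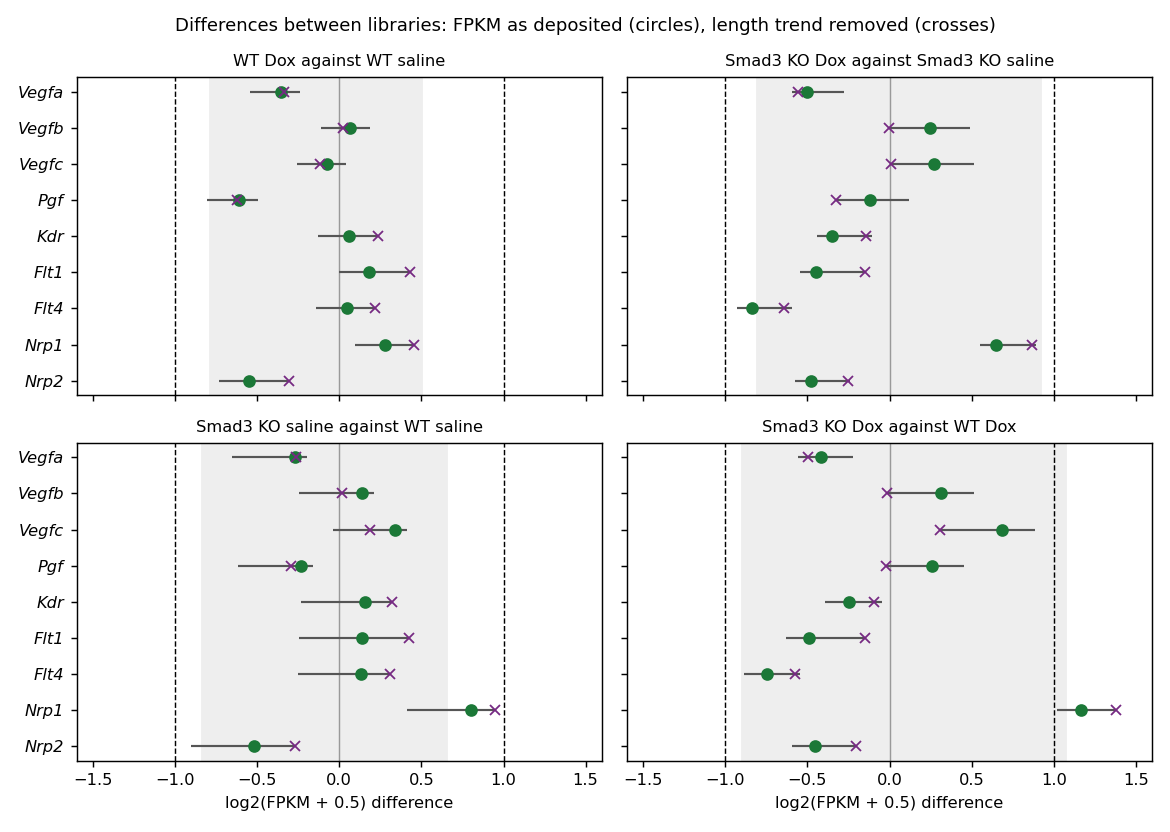
Difference in log2(FPKM + 0.5) of the 9 genes in the 4 comparisons: circles, FPKM as deposited; crosses, after removal of the trend with transcript length; lines, the range over these and the other alternatives; grey, the 5th to 95th percentile of all genes tested; dashed lines, the size rule of 1. Nrp1 is past the rule in Smad3 KO Dox against WT Dox (range 1.02 to 1.38) and Nrp2 is below 0 in all 4 panels, under every alternative, while the lines of Kdr, Flt1 and Flt4 cross 0 in both panels set against WT saline.

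Vegfa (ENSMUSG00000023951; chromosome 17, 46016993 to 46032369, minus strand, GRCm38), the main ligand of blood vessel growth, was at 9.96 FPKM in Smad3 KO Dox, 14.3 in Smad3 KO saline, 13.5 in WT Dox and 17.4 in WT saline. Both Dox libraries were below both saline libraries, and WT saline was the highest. The log2 difference was -0.36 in WT Dox against WT saline and -0.51 in Smad3 KO Dox against Smad3 KO saline, short of the size rule. Between genotypes it was -0.42 with Dox and -0.27 with saline, and all 4 differences stayed below 0 under every alternative. Under TPM, with or without mitochondrially encoded and globin genes, the Dox and saline libraries overlapped, and both Smad3 KO libraries were below both WT libraries.

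Vegfc (ENSMUSG00000031520; chromosome 8, 54077606 to 54187096, plus strand), the ligand of lymphatic growth, showed another order, at 27.0 FPKM in Smad3 KO Dox, 22.3 in Smad3 KO saline, 16.6 in WT Dox and 17.6 in WT saline. Both Smad3 KO libraries were above both WT libraries, except under TPM. The log2 difference was 0.68 in Smad3 KO Dox against WT Dox, the second highest of the 9 genes in that comparison, and 0.34 in Smad3 KO saline against WT saline (-0.04 under TPM). Between Dox and saline it was 0.27 in Smad3 KO and -0.07 in WT (0.04 with upper-quartile scaling), and with the length trend removed 0.01 in Smad3 KO and -0.12 in WT. The nearest length bins of all genes had medians of 0.35 and 0.27 in Smad3 KO Dox against WT Dox, and with the length trend removed the difference was 0.31.

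The ratio of Vegfc to Vegfa does not depend on a scaling factor per library, but can carry the length trend. Exonic length was 2449 bases for Vegfc and 4285 for Vegfa. The ratio was 2.71 in Smad3 KO Dox, 1.56 in Smad3 KO saline, 1.23 in WT Dox and 1.01 in WT saline. In Smad3 KO Dox against WT Dox, removal of the trend took the log2 difference of Vegfc from 0.68 to 0.31. That of Vegfa went from -0.42 to -0.50. Vegfc and Vegfa were thus at like levels in WT saline and apart in Smad3 KO Dox. Of the summed ligand FPKM, Vegfa made up 13.3% in Smad3 KO Dox, 19.9% in Smad3 KO saline, 22.2% in WT Dox and 24.3% in WT saline, and Vegfc 36.1%, 30.9%, 27.3% and 24.5%.

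**Figure D3:**
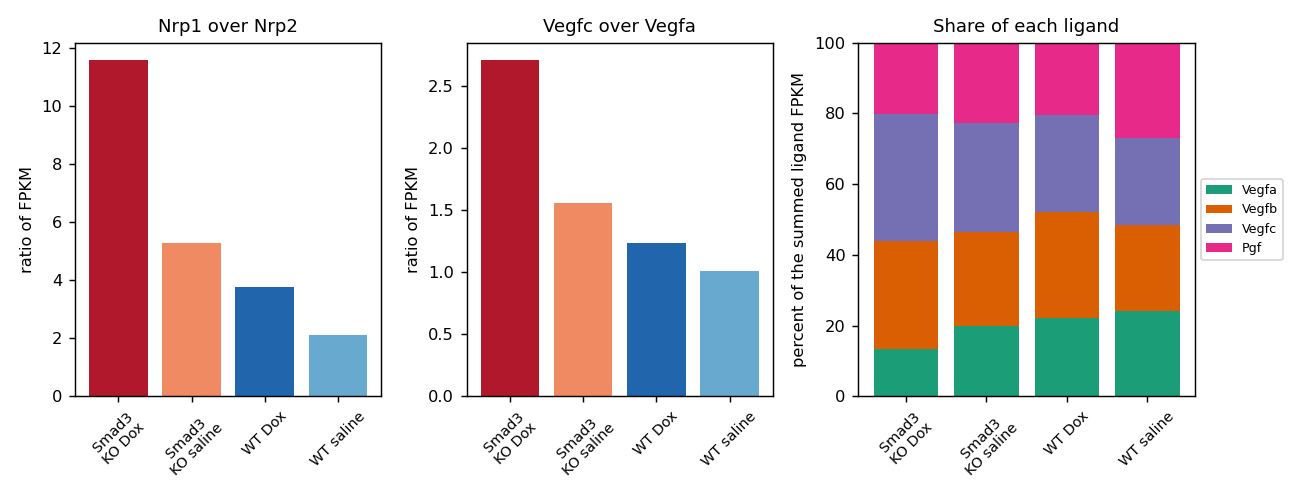
Ratios of FPKM within a library (left, Nrp1 over Nrp2; middle, Vegfc over Vegfa) and the percentage of the summed ligand FPKM held by each ligand (right), 1 bar per library. Nrp1 over Nrp2 runs 11.6, 5.30, 3.77 and 2.12 and Vegfc over Vegfa 2.71, 1.56, 1.23 and 1.01 from Smad3 KO Dox to WT saline.

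Vegfb (ENSMUSG00000024962; chromosome 19, 6982473 to 6987651, minus strand), a ligand linked to fatty acid handling and coronary vessel survival in the heart, was at 22.9 FPKM in Smad3 KO Dox, 19.2 in Smad3 KO saline, 18.3 in WT Dox and 17.4 in WT saline. These levels spanned 1.31-fold, and the sign of each of its differences changed under at least 1 alternative. Pgf (ENSMUSG00000004791; chromosome 12, 85166635 to 85177790, minus strand), a ligand of Flt1, was at 15.0, 16.3, 12.5 and 19.3 FPKM in that order. Both Dox libraries were below both saline libraries for Pgf, but overlapped with them under TPM and with scaling to pan-endothelial genes. Its log2 difference was -0.61 in WT Dox against WT saline, the lowest of the 9 genes there, and -0.12 in Smad3 KO Dox against Smad3 KO saline (0.12 under TPM and 0.04 with pan-endothelial scaling). Between genotypes it was 0.26 with Dox, and -0.02 after removal of the length trend, and -0.23 with saline. VEGF-D, listed as Figf, was at 0.437 FPKM or less in every library and was not among the genes tested. VEGF-D and the genes listed for proteolytic processing of VEGF-C and VEGF-D, 4 in all, were in the table, and 0 reached a mean of 1 FPKM.

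The upstream sequences of the ligands that diverged are shown because the motif most often found in this family lies in both. RefSeq promoter windows (GRCm38.p6) were matched for 9 of 9 genes, with 11 windows in all, and the 250 bases before each start were searched on both strands for 5 motifs. The GC box GGGCGG, bound by Sp1 family factors, was in 10 of the 11 windows and at least once for each of the 9 genes, against 32.7% of all 32851 windows. The windows of the 9 genes were 59.2% to 76.4% G and C, against a median of 52.4% over all windows. The Smad motif CAGACA was in 1 window, the second of Vegfa (17.1% of all windows), and its shorter form GTCTG, whose reverse complement CAGAC lies within CAGACA, in 3 windows, 1 of Pgf and both of Vegfa (42.2%). The hypoxia element core ACGTG was in 1 window, the second of Vegfa (16.6%), and the ETS motif CCGGAA in 1, that of Kdr (12.0%). That second window of Vegfa (46025114 to 46025413), both windows of Pgf and that of Flt4 lie inside the annotated gene and not before its outermost start. Below, capitals mark GGGCGG or its reverse complement CCGCCC, and the strand is that of the gene. A match is a run of letters and not evidence of binding.
Vegfa, chr17:46032378-46032627, minus strand: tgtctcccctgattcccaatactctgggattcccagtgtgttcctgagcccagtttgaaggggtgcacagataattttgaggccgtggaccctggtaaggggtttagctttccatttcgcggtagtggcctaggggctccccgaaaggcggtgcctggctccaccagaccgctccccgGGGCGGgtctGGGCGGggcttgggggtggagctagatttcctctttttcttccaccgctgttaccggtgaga
Vegfc, chr8:54077282-54077531, plus strand: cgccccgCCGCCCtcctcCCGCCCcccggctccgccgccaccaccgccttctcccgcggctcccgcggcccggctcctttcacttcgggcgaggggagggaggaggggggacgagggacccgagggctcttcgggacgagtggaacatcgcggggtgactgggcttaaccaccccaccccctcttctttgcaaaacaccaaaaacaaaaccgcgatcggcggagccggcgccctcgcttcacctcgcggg
Each of these windows holds 2 GC boxes. Those of Vegfa stand close together near the start, and those of Vegfc lie at the far end from it.

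Kdr (ENSMUSG00000062960; chromosome 5, 75932827 to 75978458, minus strand), the main signalling receptor, had the narrowest range of the 9 genes. It was at 222 FPKM in Smad3 KO Dox, 282 in Smad3 KO saline, 264 in WT Dox and 253 in WT saline, a spread of 1.27-fold. Between genotypes its log2 difference was -0.25 with Dox and 0.16 with saline (-0.23 under TPM). Relative to the geometric mean of 12 pan-endothelial genes it was 1.26, 1.43, 1.30 and 1.26, and the difference of Smad3 KO Dox from Smad3 KO saline was -0.18 on that scale, against -0.35 in FPKM as deposited. Among genes averaging 5 FPKM or more, those whose profile over the 4 libraries came nearest to that of Kdr were Colgalt1, Ccdc97, P4hb, Cyb5r1 and Eya3. Their root mean square distances, on the centred log2 scale, were 0.015 to 0.019.

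Flt1 (ENSMUSG00000029648; chromosome 5, 147561604 to 147726011, minus strand) was at 234 FPKM in Smad3 KO Dox, 320 in Smad3 KO saline, 329 in WT Dox and 290 in WT saline. Smad3 KO Dox was the lowest and the other libraries lay within a narrow span. Its log2 difference was -0.45 in Smad3 KO Dox against Smad3 KO saline. Against WT Dox it was -0.49. At 13504 bases its exonic length was the longest of the 9, and with the length trend removed both differences were -0.15. Flt1 exceeded Kdr in every library, with ratios of 1.06, 1.13, 1.25 and 1.14 in the order above. The gene gives rise to a membrane receptor and to a secreted decoy receptor, which a value per gene does not separate.

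Flt4 (ENSMUSG00000020357; chromosome 11, 49609263 to 49652739, plus strand) stood apart in 1 library, at 29.4 FPKM in Smad3 KO Dox, 52.8 in Smad3 KO saline, 49.5 in WT Dox and 48.0 in WT saline. The log2 difference of Smad3 KO Dox was -0.83 against Smad3 KO saline, while against WT Dox it was -0.74, both short of the size rule. These were the lowest values among the 9 genes in both comparisons, and stayed at or below -0.60 and -0.54 under the alternatives. The ratio of Flt4 to Kdr was 0.132 in Smad3 KO Dox and 0.187, 0.188 and 0.190 in the other libraries. The sum of 7 lymphatic markers was also lowest in that library, at 116 FPKM in Smad3 KO Dox, 232 in Smad3 KO saline, 216 in WT Dox and 318 in WT saline. Singly, Thy1 was lowest in WT Dox (24.1 FPKM, against 25.0 in Smad3 KO Dox). Pdpn was lowest in Smad3 KO saline (1.67 FPKM, against 1.74 in Smad3 KO Dox). Of the 7 markers, 4 fell in Smad3 KO Dox against WT Dox, where 3.75% of all genes fell. Among the 4 were Lyve1, a hyaluronan receptor (20.8 against 45.5 FPKM), and Ccl21a, a chemokine (57.8 against 121 FPKM). Prox1, the lymphatic transcription factor, was at 1.09, 1.97, 1.83 and 2.99 FPKM in Smad3 KO Dox, Smad3 KO saline, WT Dox and WT saline. Per unit of the lymphatic geometric mean Flt4 was 4.09, 4.30, 3.90 and 2.83, so WT saline and not Smad3 KO Dox was the lowest on that scale. A low sum in Smad3 KO Dox was not particular to lymphatic markers. The venous sum was 147, 212, 279 and 269 FPKM in the same order, and the endocardial sum 71.9, 118, 126 and 139 FPKM. The sums of pan-endothelial, capillary, arterial and macrophage and leukocyte markers were also lowest there. The part of lymphatic or other cells in the Flt4 result was not tested.

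Kdr, Flt1 and Flt4 had the same ordering of signs. Each was higher in WT Dox than in WT saline, by 0.06, 0.18 and 0.04 on the log2 scale, and lower in Smad3 KO Dox than in Smad3 KO saline, with differences of -0.35, -0.45 and -0.83. The WT difference turned under TPM, to -0.13 for Kdr, just below 0 for Flt1 and -0.14 for Flt4, while the Smad3 KO difference stayed below 0 under every alternative. Opposite signs of the Dox differences were found in 4 of the 9 VEGF genes and in 41.4% of all genes tested. The Dox difference in Smad3 KO minus that in WT reached 1 in size for 0 of the 9 and for 10.5% of all genes. The signs of Kdr, Flt1 and Flt4 were not particular to the receptors. The median Dox difference of 7 capillary markers was 0.17 in WT and -0.26 in Smad3 KO. That of 12 pan-endothelial markers was 0.05 and -0.19, beside -0.06 and 0.05 over all genes. Singly, Cd36 (0.31 and -0.60) and Tie1 (0.14 and -0.53) had these signs, while Fabp4 (-0.16 and 0.15) and Egfl7 (-0.38 and 0.25) had the reverse.

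Nrp1 (ENSMUSG00000025810; chromosome 8, 128358604 to 128503363, plus strand), the co-receptor that couples to Kdr when VEGF-A is bound, had the widest range of the 9 genes. It was at 649 FPKM in Smad3 KO Dox, 414 in Smad3 KO saline, 289 in WT Dox and 238 in WT saline. Within each genotype the Dox library was above the saline library, and both Smad3 KO libraries were above both WT libraries. Nrp1 rose by 1.17 on the log2 scale in Smad3 KO Dox against WT Dox, or 2.25-fold, where the 5th and 95th percentiles of all genes were -0.90 and 1.07. The difference was 0.80 in Smad3 KO saline against WT saline, where the 95th percentile was 0.66. Between Dox and saline it was 0.65 in Smad3 KO and 0.28 in WT. Every one of these kept its sign under all alternatives, and the value in Smad3 KO Dox against WT Dox ran between 1.02 and 1.38 over them, with the highest after removal of the length trend. With the genotype taken from the tag, the mean log2 difference between genotypes was 0.46 in place of 0.98. Genotype by the tag coincides with treatment by title, so 0.46 is also the mean difference of Dox from saline.

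Nrp2 (ENSMUSG00000025969; chromosome 1, 62703285 to 62818695, plus strand), the co-receptor associated with Flt4, ran in nearly the opposite order. It was at 55.9 FPKM in Smad3 KO Dox, 78.2 in Smad3 KO saline, 76.6 in WT Dox and 112 in WT saline. The log2 differences were of near-equal size in all 4 comparisons, between Dox and saline -0.48 in Smad3 KO and -0.55 in WT, and between genotypes -0.45 with Dox and -0.52 with saline. None passed the size rule, and none changed sign under an alternative. The ratio of Nrp1 to Nrp2 was 11.6 in Smad3 KO Dox, 5.30 in Smad3 KO saline, 3.77 in WT Dox and 2.12 in WT saline, a spread of 5.48-fold. The ratio of Nrp1 to Kdr was 2.92, 1.47, 1.09 and 0.938 in the same order.

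The neuropilin promoters are printed side by side because their levels went in opposite directions. The windows are not defined alike by annotation. That of Nrp1, 250 bases before the RefSeq start, overlaps no GENCODE exon but lies inside the GENCODE gene, whose outermost transcript starts further upstream. That of Nrp2 was ended at the first annotated base of the gene, leaving 218 bases.
Nrp1, chr8:128358823-128359072, plus strand: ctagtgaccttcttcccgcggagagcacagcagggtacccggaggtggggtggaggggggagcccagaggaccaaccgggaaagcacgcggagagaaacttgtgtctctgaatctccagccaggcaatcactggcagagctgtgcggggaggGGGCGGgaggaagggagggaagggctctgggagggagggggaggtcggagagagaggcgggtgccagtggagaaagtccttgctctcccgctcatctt
Nrp2, chr1:62703067-62703284, plus strand: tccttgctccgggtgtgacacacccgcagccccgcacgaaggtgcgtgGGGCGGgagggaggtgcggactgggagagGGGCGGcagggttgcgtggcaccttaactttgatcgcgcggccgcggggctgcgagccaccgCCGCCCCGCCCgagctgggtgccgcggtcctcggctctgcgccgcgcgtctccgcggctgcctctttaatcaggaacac
Capitals mark GGGCGG or CCGCCC as above, with 1 copy for Nrp1 and 4 for Nrp2, of which a pair overlaps. Neither full window held any of the other motifs searched. The GC box was found for each of the 9 genes, and a link of the printed sequences to the levels was not tested.

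Other features of these libraries ran alongside the neuropilin levels. First, differences depended on transcript length, as the plot by exonic length shows. In Smad3 KO Dox against WT Dox the median over all genes was 0.35 in the shortest eighth of genes and -0.27 in the longest. Nrp1, at 9785 bases of exons, lay well above genes of its length. Nrp2, at 11842 bases, was near them, and its difference in that comparison was -0.20 with the trend removed, against -0.45 before. Second, the summed cardiomyocyte markers had the same order over the libraries as Nrp1, as did 7 of the 9 tested singly (Tnnt2, Tnni3, Actc1, Myl2, Myl3, Pln and Ckm) and 14.4% of all genes. Of the sum, 920 of 2050 FPKM in Smad3 KO Dox were Myl2. Myh6, at 87.6, 153, 112 and 68.5 FPKM, and Ttn, at 2.58, 1.74, 2.58 and 1.34 FPKM, did not follow that order. The 5 genes nearest to Nrp1 in profile were Ecsit, Gstt2, Actc1, Myl2 and Nol12 (root mean square distance 0.040 to 0.059 over 4 libraries), of which Actc1 and Myl2 encode cardiac sarcomere proteins. Actc1 was at 273, 175, 123 and 108 FPKM and Myl2 at 920, 582, 438 and 329 FPKM in Smad3 KO Dox, Smad3 KO saline, WT Dox and WT saline. Of the 9 cardiomyocyte markers tested, 3 rose in Smad3 KO Dox against WT Dox, where 6.17% of all genes rose. The summed pericyte and smooth muscle markers, for another cell type that can express Nrp1, were 1263, 1350, 1151 and 891 FPKM. Rgs5 made up 476, 705, 602 and 414 FPKM of these sums. Of the 9 markers 2 rose in Smad3 KO Dox against WT Dox (6.17% of all genes), Vtn and Kcnj8, and 3 (Vtn, Acta2 and Tagln) had the order of Nrp1. That order was not particular to these cell types. Fibroblast markers (Dcn, Col1a2 and Lum), red cell markers (Hbb-bs, Hbb-bt and Alas2), pan-endothelial Ecscr and arterial Gja4 had it too, while the other markers of those lists did not. Vtn was at 143, 101, 65.5 and 57.3 FPKM and Kcnj8 at 79.7, 50.8, 36.7 and 38.1 FPKM. The shares of all genes given here are over genes of all lengths. The part of the length trend in the order of these markers was not tested, nor was that of these cells in the Nrp1 levels. A microRNA gene, Mir1903, overlaps 80 exonic bases of Nrp1 on the same strand and was listed at the table's lowest value, 0.05, in all 4 libraries.

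**Figure D4:**
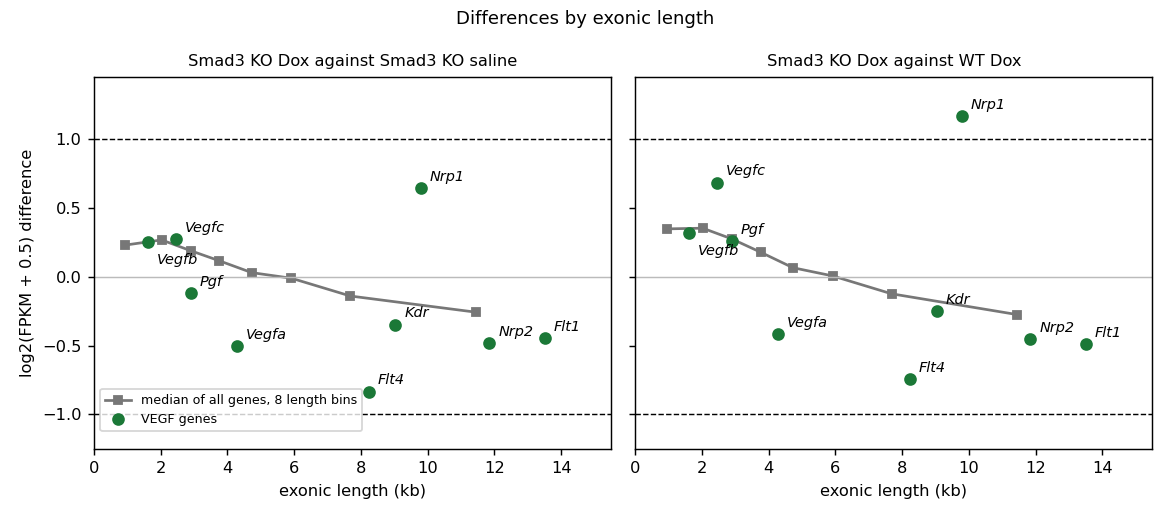
Difference in log2(FPKM + 0.5) against exonic length in kilobases, for Smad3 KO Dox against Smad3 KO saline (left) and Smad3 KO Dox against WT Dox (right): green circles, the 9 VEGF genes; grey squares, the median of all genes in 8 length bins. The medians fall from 0.35 to -0.27 with length on the right, and Nrp1 (1.17) lies above the size rule while Vegfa, Flt4, Flt1 and Nrp2 lie below the medians of like length.

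Over pairs of libraries, 3 genes were higher in both Smad3 KO libraries than in both WT libraries (Vegfb, Vegfc and Nrp1), as were 28.0% of all genes. Of the 9, 0 were lower in both, against 20.7% of all genes. Under TPM only Nrp1 remained among the higher, while Vegfa, Kdr, Flt1, Flt4 and Nrp2 were then lower in both. Vegfb also left the higher group with the length trend removed. Without the Smad3 KO Dox library 5 genes were higher in Smad3 KO saline than in both WT libraries, Kdr and Flt4 being added, where 37.5% of all genes were, and 0 were lower than both, where 32.0% were. Both Dox libraries were below both saline libraries for 3 genes (Vegfa, Pgf and Nrp2) and for 15.4% of all genes, and above them for 0 of the 9 and for 12.1%. Nrp2 left this group with median-ratio or upper-quartile scaling, and under TPM the 3 became 0.

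The genes around the receptors were read against the shares of all genes past the size rule given above. Of 35 signal transducers of VEGF receptors, all tested, 0 passed the size rule in WT Dox or in Smad3 KO saline, each set against WT saline. In Smad3 KO Dox against WT Dox 1 rose and 2 fell, in all a share near that of all genes (6.17% rose and 3.75% fell). Ppp3ca, a catalytic subunit of calcineurin, was at 91.0 FPKM in Smad3 KO Dox, against 43.4 FPKM in WT Dox. Hspb1, a small heat shock protein phosphorylated downstream of p38, was at 481 FPKM in Smad3 KO Dox, against 1083 FPKM in WT Dox, and Pik3ca, a catalytic subunit of PI3 kinase, at 8.28 against 17.5 FPKM. Prkcb, a protein kinase C, rose in Smad3 KO Dox against Smad3 KO saline (4.78 against 1.34 FPKM). The median difference of the 35 lay between -0.09 and 0.03 in the 4 comparisons. Nos3, the endothelial nitric oxide synthase, was at 115, 110, 107 and 109 FPKM in Smad3 KO Dox, Smad3 KO saline, WT Dox and WT saline.

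Receptor partners and trafficking genes fell in 3 of 19 cases in Smad3 KO Dox against WT Dox, where 3.75% of all genes fell, and in 3 of 19 against Smad3 KO saline, where 2.84% did. None of the 19 rose in these comparisons, where 6.17% and 4.02% of all genes did. Cdh5, the adherens junction cadherin that complexes with Kdr, was at 168 FPKM in Smad3 KO Dox, 341 in Smad3 KO saline, 372 in WT Dox and 475 in WT saline. It fell against both Smad3 KO saline (-1.02) and WT Dox (-1.15), where Kdr did not pass the rule. Cbl, a ubiquitin ligase that acts on activated receptors, was at 1.93, 5.31, 5.13 and 7.33 FPKM in the same order and fell in both comparisons. Myo6, a motor that carries endocytosed receptor, fell in Smad3 KO Dox against Smad3 KO saline (12.7 against 26.5 FPKM). Itgav, the αv integrin, was at 2.98 FPKM in Smad3 KO saline, against 6.79 FPKM in WT saline, and so fell.

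Of 9 class 3 semaphorins and plexins tested, the other ligands and partners of neuropilins, 1 fell in WT Dox and 1 in Smad3 KO saline, each against WT saline, and 0 passed the rule in the other comparisons. By sign alone 8 were below 0 in WT Dox against WT saline (56.9% of all genes), 9 in Smad3 KO Dox against Smad3 KO saline (44.9%), 8 for Smad3 KO saline over WT saline (51.4%), and 8 for Smad3 KO Dox over WT Dox (41.9%). In that order their median differences were -0.36, -0.39, -0.58 and -0.62, and with the length trend removed -0.21, -0.23, -0.26 and -0.31. Each of these medians stayed below 0 under every scaling tried. Sema3a, a repellent ligand that binds Nrp1, was at 1.62 FPKM in Smad3 KO Dox, 1.82 in Smad3 KO saline, 2.42 in WT Dox and 5.98 in WT saline, and fell against WT saline in both WT Dox (-1.15) and Smad3 KO saline (-1.48). Plxnd1, the main endothelial plexin, was at 98.6, 135, 134 and 168 FPKM and passed the rule in no comparison.

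Of 19 genes tested from a list of VEGF-induced and feedback genes, 0 passed the size rule between Dox and saline in either genotype. The list was not drawn from a VEGF response in these cells. The part of VEGF or of other stimuli in the levels of its genes was not tested. By sign alone 15 of the 19 were below 0 in WT Dox against WT saline (56.9% of all genes), with a median of -0.28. In Smad3 KO Dox against Smad3 KO saline 12 were below 0 (44.9%). Their median there was -0.21, but 0.02 under TPM and -0.40 with the length trend removed. The same number, 12, were below 0 for Smad3 KO saline over WT saline (51.4%), and 9 for Smad3 KO Dox over WT Dox (41.9%). With the length trend removed 14 were below 0 for Smad3 KO Dox over WT Dox, with a median of -0.20, against 0.03 before. Apln, the ligand of the apelin receptor and a tip cell gene, rose in Smad3 KO Dox against WT Dox (16.5 against 7.80 FPKM), and Cxcr4, a chemokine receptor, fell there (13.1 against 28.0 FPKM). Adamts9, a metalloprotease, fell to 17.9 FPKM in Smad3 KO saline, against 39.8 FPKM in WT saline. Of 8 regulators of oxygen sensing, which set transcription of Vegfa in hypoxia, 0 passed the rule in any comparison. Among 12 oxygen-responsive targets tested, P4ha1, a collagen prolyl hydroxylase, fell in Smad3 KO Dox against WT Dox (27.4 against 81.6 FPKM) and no other passed in any comparison. Of 10 endothelial transcription factors tested 0 passed, and 8 were below 0 in Smad3 KO Dox against WT Dox, where 41.9% of all genes were.

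**Figure D5:**
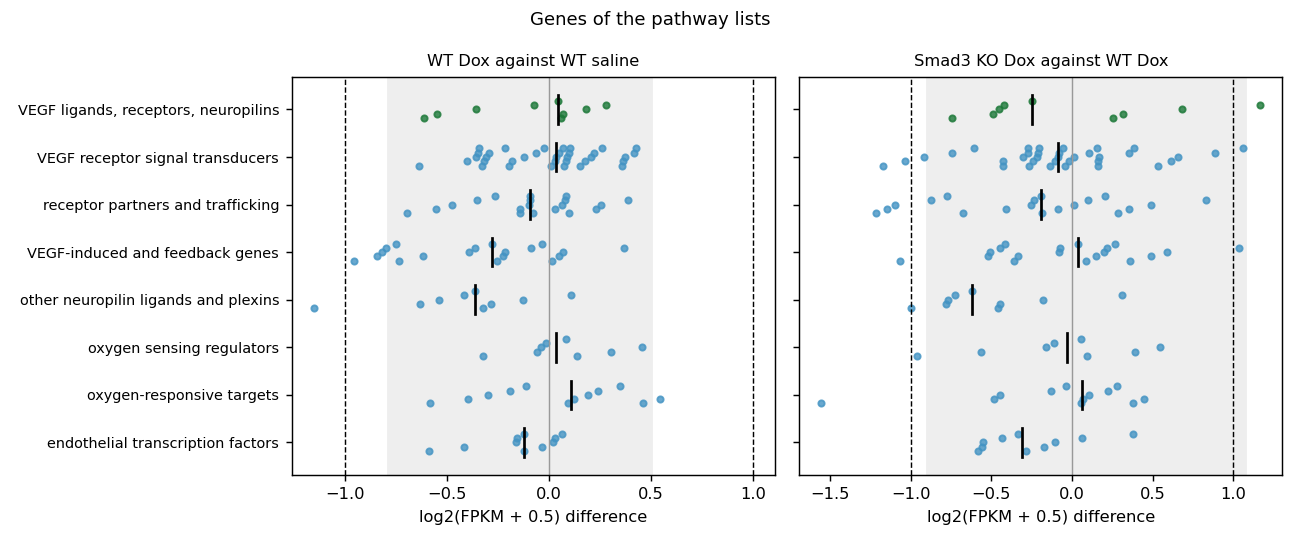
Difference in log2(FPKM + 0.5) of each gene tested in the VEGF lists, for WT Dox against WT saline (left) and Smad3 KO Dox against WT Dox (right): points, genes; black bars, list medians; grey, the 5th to 95th percentile of all genes; dashed lines, the size rule. The semaphorin and plexin medians stand at -0.36 and -0.62, those of the signal transducers at 0.03 and -0.09.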

How the data were processed

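The deposited values are FPKM, in a table of genes with 1 column for each of the 4 libraries (paired-end sequencing). Per the submitters' processing notes CASAVA, STAR and GRCm38 (p4) were used, whereas the methods name TopHat, Bowtie and Cufflinks, so it is uncertain which aligner was used. Annotation release and strand use: not given in the sources used here. Isoforms and antisense reads cannot be told apart. Lines of 1 gene ID were summed (51 IDs), and 1 value below the table's floor of 0.05 was set to it. The values carry no counts, and depth was read only from the spacing of low values (345 to 352 genes per library), so counting error per gene is unknown. Differences are between log2(FPKM + 0.5) values, a scale that understates changes of low genes, among 12325 genes. Exonic lengths and positions came from GENCODE M21 (GRCm38) and promoters from RefSeq.

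The members, lists and rules were chosen with earlier results of these data known. Named are the 9 genes and Smad3, up to 2 genes per list, comparison and direction past the size rule, and the 5 genes nearest in profile to Kdr and to the gene of widest range. Values or names of other genes (Nos3, Plxnd1, Prox1, Figf and the cell type markers that share or break the order of Nrp1) were chosen after they were seen. Alternatives changed the pseudocount, filter, scaling, length trend, size rule and genotype source, and the calculations were tested on simulated data. Analyses used Python 3.11.15, numpy 2.4.6 and pandas 2.3.3.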

Additional observations from a re-analysis of the deposited data

Results flagged for a closer look

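The Dox difference in Smad3 KO mice and that in WT mice had opposite signs for 4 of the 9 VEGF genes, as they did for 41.4% of all genes tested. The Dox difference in Smad3 KO minus the Dox difference in WT was 0.35 for Vegfc, -0.41 for Kdr, -0.63 for Flt1 and -0.88 for Flt4 on the log2 scale. With 1 library per group the difference was not tested. The median Dox differences of capillary and of pan-endothelial markers had the same signs as those of Kdr, Flt1 and Flt4. The signs were not the same under every scaling: under TPM Kdr, Flt1 and Flt4 were lower with Dox in both genotypes, and with upper-quartile scaling Vegfc was higher with Dox in both. With the length trend removed the Vegfc differences were 0.01 in Smad3 KO and -0.12 in WT. The Smad3 KO Dox library, in which Kdr, Flt1 and Flt4 were lowest, had a relative depth of 0.752 and a globin share of 5.04%, against 0.753% in WT Dox, and the part of these in the differences was not tested.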

How the results depend on the processing

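Each of the 36 member differences was recomputed under 9 alternatives, and all 324 values stayed on their side of the size rule. The sign changed in 22 of the 324, and 22 of the 36 differences kept theirs throughout, among them all 4 of Vegfa, Nrp1 and Nrp2. No paired analysis was possible because each group has 1 library, and for the same reason no library could be left out within a comparison. With a size rule of 1.5-fold, 1 member passed in WT Dox against WT saline (Pgf), 2 in Smad3 KO Dox against Smad3 KO saline (Flt4 lower, Nrp1 higher), 1 for Smad3 KO saline over WT saline (Nrp1) and 3 for Smad3 KO Dox over WT Dox (Vegfc and Nrp1 higher, Flt4 lower). In the order of these comparisons the genes past the rule, 459, 845, 582 and 1223 as reported, were 1663, 2939, 2236 and 3907 with that rule, 814, 1661, 992 and 2043 with no filter, and 164, 371, 252 and 632 with a mean of at least 5 FPKM. Replacing only the lowest values by 0.5 gave 690 genes in WT Dox against WT saline. TPM gave 741 there and 1406 for Smad3 KO saline over WT saline, and TPM without mitochondrially encoded and globin genes 982 in the second. TPM moved the median of all genes to -0.24 in WT Dox against WT saline, 0.29 for Smad3 KO Dox over Smad3 KO saline and -0.38 for Smad3 KO saline over WT saline. In Smad3 KO Dox against WT Dox 761 genes rose and 462 fell, against 528 and 676 with median-ratio scaling, 620 and 576 with upper-quartile scaling, 1298 and 297 with scaling to pan-endothelial genes and 501 and 523 with the length trend removed.

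The separation of libraries was recomputed under settings chosen after the data were examined. Members higher in both Smad3 KO libraries, 3 as reported, were 1 under TPM and 5 without the Smad3 KO Dox library. Members lower in both, 0 as reported, were 1 (Nrp2) with median-ratio or upper-quartile scaling and 5 under TPM with or without mitochondrially encoded and globin genes. Members lower in both Dox libraries, 3 as reported, were 0 under TPM and 1 (Pgf) under TPM without those genes, and 1 member (Flt1) was higher in WT Dox than in both saline libraries once Smad3 KO Dox was left out. With genotype from the tag, the Smad3 difference was -0.29 and that of Pgf turned to -0.37 (0.01 by title). Both tag values are also mean differences of Dox from saline by title, since the tag coincides with treatment.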
